A study of Mus musculus with 12 samples.

Results

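The genes described here are the Fos, Jun, Atf3 and Egr transcription factors of the immediate early class in mouse cartilage progenitor pellets passing from a cartilage to a bone medium. They were chosen by gene symbol, as listed in the deposited table, and not by a threshold on a value: Fos, Fosb, Fosl1, Fosl2, Jun, Junb, Jund, Atf3, Egr1 and Egr2, 10 of 28244 genes listed. All 10 passed the filter on low values that left 17674 genes for testing.

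Immediate early genes are switched on within minutes of a stimulus without new protein synthesis, mostly through serum response factor (SRF), its ternary complex partners and CREB. Fos and Jun proteins pair through leucine zippers into the AP-1 dimer, which binds TGAGTCA, and Atf3 is a related zipper protein known from stress responses. Egr1 and Egr2 are zinc finger factors that bind GC-rich sites such as GCGNGGGCG. In skeletal cells Fosl1 and Fosl2 are known for roles in bone matrix formation, Junb and Fos for roles in chondrocyte and osteoclast biology, and Egr1 as a factor that responds to mechanical load.

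RNA sequencing was made of pellets of murine mesenchymal progenitors, released by collagenase from the heads and condyles of femur and tibia of C57/BL6 pups that were 5 or 6 days old. The pellets received a chondrogenic medium for 7 days and an osteogenic medium afterwards, and neither transgenes nor deletions were involved. The 4 groups are D7 (the end of the chondrogenic phase, day 7), D8, D10 and D28, the last 3 after 1, 3 and 21 days in osteogenic medium, with 3 libraries each. No library comes from a pellet kept in chondrogenic medium beyond D7, so time in culture and the change of medium cannot be told apart. The labels do not say whether replicates came from separate isolations or litters, so p-values measure the spread between these libraries. Media were renewed every 4 days, but the sources used here do not give the days of renewal. The interval from the last renewal to sampling is therefore not known for each time point. It cannot be told apart from the time point.

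Levels are on the deposited scale, log2 of the equalized read count plus 1, and a difference of 1 on it is a doubling. Depth is known only from the lowest values: relative depth was lowest in the first D10 replicate (0.730) and highest in the first D28 replicate (1.31), and a count of 3 reads stood at 2.87 or lower in every library. The lowest value of any of the 10 genes, 4.15 for Egr2, lay above that level. Of 11 chondrocyte markers, none was at 0 throughout any time point, and their summed log2 level was between 20.48 and 20.63 in the D10 libraries, 21.25 to 21.30 in those of D28 and 21.36 to 21.59 before D10. That sum is carried by Col2a1, which sits at the maximum shared by all libraries at D7, D8 and D28 and at 19.87 at D10. From D7 to D10, 6 of the 11 fell and 0 rose, beside 10.4% of all genes tested called lower and 8.50% called higher. Among those that fell were Matn3 (-4.37), Hapln1 (-2.13), Comp (-1.77) and Col9a1 (-1.65), while Atf3, Egr1 and Fosl1 rose. From D10 to D28, 4 of the 11 markers rose and 1 fell, beside 13.8% of all genes called higher and 13.7% called lower. The 10 osteoblast markers summed to 18.37 to 19.41 over all libraries, but single markers moved apart. From D7 to D10, 5 rose and 4 fell, beside 8.50% of all genes called higher and 10.4% called lower. Among them were Bglap2 (4.32), Alpl (-3.26) and Ibsp (-6.34). The 8 skeletal muscle markers summed to 11.23 to 11.67 at D7 and 3.83 to 6.24 at D28, with Myf5 at 0 in every D28 library, and the 7 endothelial markers to between 4.39 and 8.00, with Tie1 at 0 in every D10 library. The 10 myeloid markers summed to 10.30 to 10.80 from D7 to D10 and to 10.31 to 12.31 at D28. From D7 to D10, 6 of the 8 muscle markers fell, 2 of the 10 myeloid markers rose and 2 fell, and 1 of the 7 endothelial markers rose. Over all genes tested, 8.50% were called higher and 10.4% lower. From D10 to D28, 5 osteoblast markers rose and 0 fell, 5 myeloid markers rose and 1 fell, and 4 muscle markers fell and 0 rose. No endothelial marker was called there, and over all genes 13.8% were called higher and 13.7% lower. In such bulk samples, fewer cells of a type and less RNA per cell cannot be told apart, and the part of these cell types in the results was not tested.

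The genes fell into a small group that peaked at D10 (Atf3, Egr1 and Fosl1), a pair that was lower at D28 than at D10 without a call before (Junb and Egr2), and a remainder whose means stayed within a log2 difference of 1 of each other. A gene was called when its log2 fold change reached 1 in size and its limma p, adjusted by Benjamini-Hochberg across the whole table tested, was under 0.05. "Rose" and "fell" are used only of such calls.

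**Figure D1:**
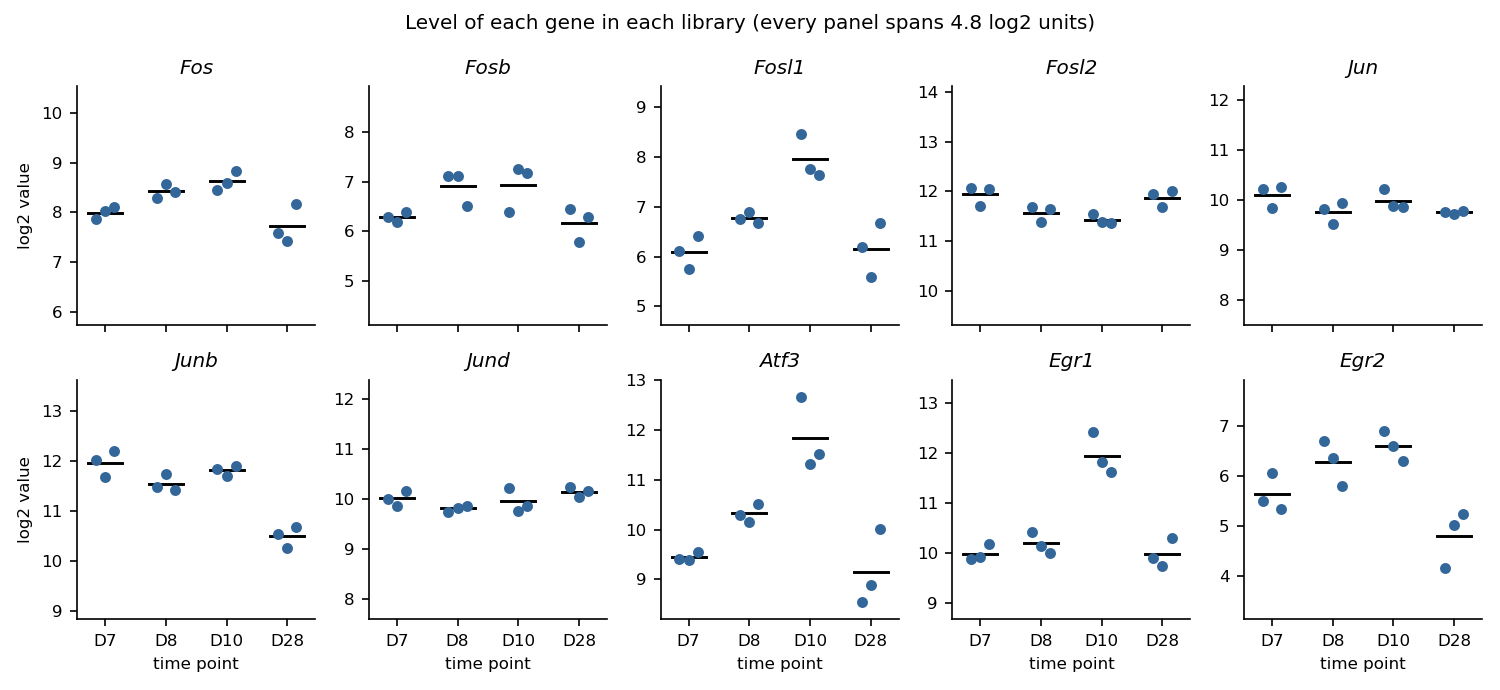
The log2 value (vertical axis) of each of the 10 genes in each of the 12 libraries (points, 3 per time point) with the mean of each time point (black bars). Atf3, Egr1 and Fosl1 have their highest points at D10, Junb has its 3 lowest at D28, and Jun, Jund and Fosl2 stay close to one level.

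Atf3, a stress-responsive repressor and activator of the ATF/CREB family, had the widest course. It lies at chr1:191170296-191218039 on the minus strand (GRCm38). Its log2 values were 9.40, 9.38 and 9.56 at D7 and 10.30, 10.16 and 10.51 at D8. They were 12.66, 11.32 and 11.52 at D10 and 8.55, 8.89 and 10.01 at D28. Every D10 library was above every other library, while 2 of the D28 libraries lay below D7 and the third above it. Atf3 rose by a log2 fold change of 2.39 from D7 to D10 (SE 0.33, adjusted p = 3.2e-05), a 5.23-fold increase, of which 1.51 fell between D8 and D10 (SE 0.33, adjusted p = 0.0030). From D10 to D28 it fell by 2.68 on the log2 scale (SE 0.33, adjusted p = 5.5e-06). The step from D7 to D8 was 0.87 (SE 0.33, adjusted p = 0.071), with no overlap between the libraries, and it was not called. The first D10 replicate was the highest by more than a log2 unit and had the lowest relative depth of all libraries, and without it the D10 against D7 difference was 1.97 and still called.

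Egr1, a zinc finger factor induced by growth factors and load, had the smallest adjusted p of the 10 genes for D10 against D7. Its log2 values were 9.87, 9.91 and 10.18 at D7, 10.42, 10.15 and 10.01 at D8, 12.42, 11.82 and 11.62 at D10 and 9.90, 9.73 and 10.30 at D28. The D10 libraries stood clear of the other 9, which overlapped one another. Egr1 rose by 1.76 from D8 to D10 (SE 0.19, adjusted p = 1.4e-05) and by 1.96 from D7 to D10 (SE 0.19, adjusted p = 9.0e-07), which is 3.90-fold. It fell by 1.98 from D10 to D28 (SE 0.19, adjusted p = 4.2e-07). The D28 against D7 difference was -0.01, with a 95% confidence interval from -0.42 to 0.39.

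Fosl1 (Fra-1), the Fos relative that is itself an AP-1 target, lies at chr19:5447547-5455946 on the plus strand. Its log2 values were 6.12, 5.75 and 6.42 at D7 and 6.75, 6.89 and 6.68 at D8. They were 8.45, 7.75 and 7.64 at D10 and 6.20, 5.59 and 6.68 at D28. D8 lay above D7 and D10 above D8 without overlap, and D28 covered the range of D7. Fosl1 rose by 1.17 from D8 to D10 (SE 0.29, adjusted p = 0.0068) and by 1.85 from D7 to D10 (SE 0.29, adjusted p = 0.00010), and fell by 1.79 from D10 to D28 (SE 0.29, adjusted p = 8.3e-05). The D10 against D8 call was lost without the first D10 replicate (0.92, adjusted p = 0.038). In GENCODE M21, 1163 of its 2033 exonic bases lie opposite exons of Ccdc85b, and the strand setting of the counting is not given in the sources used here. Ccdc85b had mean log2 values of 9.15 at D7, 8.95 at D10 and 9.62 at D28, and its D10 against D7 difference was -0.21 (adjusted p = 0.17).

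The other Fos genes moved less. Fos, the founding AP-1 subunit (chr12:85473890-85477273, plus strand), had log2 values of 7.86, 8.02 and 8.11 at D7, 8.29, 8.58 and 8.40 at D8, 8.45, 8.60 and 8.84 at D10 and 7.59, 7.43 and 8.16 at D28. The D10 libraries were all above the D7 and D28 libraries, but the differences stayed under the fold threshold: 0.63 for D10 against D7 (SE 0.18, adjusted p = 0.011) and -0.90 for D28 against D10 (SE 0.18, adjusted p = 0.00061). Without the third D28 replicate, the highest of its group, the latter was -1.12 and was called. Fosb (chr7:19302696-19310051, minus strand), a Fos relative known for long-lived splice forms, had log2 values of 6.28, 6.19 and 6.38 at D7, 7.11, 7.11 and 6.51 at D8, 6.39, 7.25 and 7.17 at D10 and 6.44, 5.78 and 6.29 at D28. Its D10 libraries overlapped D28 through the first replicate, which was the lowest of D10 for Fosb and for Fos while it was the highest for Atf3, Egr1 and Fosl1. The D28 against D10 difference of Fosb was -0.77 (SE 0.27, adjusted p = 0.026), and without that replicate it was -1.04 (adjusted p = 0.0040) and called.

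Fosl2 (Fra-2), the Fos relative associated with osteoblast differentiation (chr5:32135801-32157842, plus strand), went the other way. Its log2 values were 12.07, 11.70 and 12.05 at D7, 11.68, 11.38 and 11.65 at D8, 11.55, 11.39 and 11.36 at D10 and 11.94, 11.69 and 12 at D28. All D10 libraries were below all D7 and D28 libraries. The differences were small, -0.51 for D10 against D7 (SE 0.13, adjusted p = 0.0042) and 0.44 for D28 against D10 (SE 0.13, adjusted p = 0.0078), and neither was called.

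Among the Jun genes only Junb was called in any comparison under the main settings. Junb, an AP-1 subunit that often limits the activity of Jun (chr8:84974484-84978718, minus strand), had log2 values of 12.01, 11.67 and 12.21 at D7 and 11.48, 11.73 and 11.41 at D8. It had 11.84, 11.70 and 11.89 at D10 and 10.53, 10.25 and 10.68 at D28. The D28 libraries lay below every earlier library, and the earlier groups overlapped. Junb fell by 1.32 from D10 to D28 (SE 0.14, adjusted p = 1.4e-06) and was lower at D28 than at D7 by a log2 fold change of -1.48 (SE 0.14, adjusted p = 9.1e-07), which is 2.78-fold. Only 173 of its 2301 exonic bases lie opposite another annotated gene, Prdx2, whose D28 against D7 difference was 0.03 (adjusted p = 0.90).

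Jun, the partner shared by most AP-1 dimers (chr4:95049034-95052222, minus strand), ranged from 9.52 to 10.26 over the 12 libraries. Its largest differences were -0.34 for D8 against D7 (SE 0.14, adjusted p = 0.098) and -0.34 for D28 against D7 (SE 0.14, adjusted p = 0.066). The D28 values of Jun, 9.77, 9.73 and 9.78, were close together and below those of D7 and D10. Jund, the Jun gene with the steadiest expression in most cells (chr8:70698949-70700616, plus strand), ranged from 9.75 to 10.24 and its smallest adjusted p in the 5 comparisons was 0.20. Gm11175 lies opposite 877 of the 1668 exonic bases of Jund, and the same limit on strand applies.

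Egr2 (Krox20), known from hindbrain, Schwann cells and bone formation, lies at chr10:67535475-67542188 on the plus strand. Its log2 values were 5.49, 6.06 and 5.34 at D7, 6.71, 6.35 and 5.80 at D8, 6.91, 6.61 and 6.29 at D10 and 4.15, 5.02 and 5.24 at D28. The D28 libraries were the lowest and those of D10 lay above D7 without overlap. Egr2 fell by 1.80 from D10 to D28 (SE 0.34, adjusted p = 0.00035). Its D10 against D7 difference was 0.98 (SE 0.34, adjusted p = 0.031), just under the fold threshold, and became a call without the second D7 replicate (1.19) or the third D10 replicate (1.13). The D28 against D7 difference was -0.82 (SE 0.34, adjusted p = 0.070), and was called without the third D28 replicate (-1.04, adjusted p = 0.043).

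Egr2 was also the only one of the 8 genes with a RefSeq promoter window (build GRCm38.p6) for which a window held a CArG box, the site bound by SRF. Windows of 300 bases, 250 before and 50 after an annotated start, matched by symbol for 8 of the 10 genes and gave 12 windows, with Fosl1 and Egr1 unmatched. On both strands, a CArG box occurred in 4 of the 5 Egr2 windows, which share 2 sites, and in 1.63% of all 32851 windows. Counted by gene, it occurred for 1.81% of all 27025 symbols. Egr2 had more windows than any of the other genes, so more of its sequence was searched. Sites further than 250 bases before a start were not searched for any gene. GCGNGGGCG occurred in the windows of Fosb and Fosl2, with 41 and 70 bases between it and the start, and in 5.55% of all windows. Neither TGAGTCA or its reverse complement TGACTCA (5.2% of all windows) nor TGACGTCA (1.79%) occurred in a window of these genes. These matches are letters in a sequence and are not evidence of binding. The 250 bases before each of the 2 Egr2 starts whose stretch overlaps no annotated exon are shown for the CArG box, in capitals. In both stretches 62 bases lie between the box and the start site.
Egr2, chr10:67537316-67537565, plus strand: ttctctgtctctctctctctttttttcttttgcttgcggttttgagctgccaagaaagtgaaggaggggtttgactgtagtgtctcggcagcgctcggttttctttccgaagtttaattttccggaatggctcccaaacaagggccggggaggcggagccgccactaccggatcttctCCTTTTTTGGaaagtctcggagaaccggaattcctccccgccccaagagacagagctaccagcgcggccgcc
Egr2, chr10:67537619-67537868, plus strand: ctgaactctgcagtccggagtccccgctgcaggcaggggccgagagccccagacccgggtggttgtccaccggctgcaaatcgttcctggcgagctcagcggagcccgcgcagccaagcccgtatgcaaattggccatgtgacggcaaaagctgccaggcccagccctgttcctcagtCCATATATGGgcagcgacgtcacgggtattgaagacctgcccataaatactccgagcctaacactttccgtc

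The comparisons of time points place these genes beside all genes tested. They share libraries, so they do not support one another. One day after the medium change, at D8 against D7, 0 of the 10 genes were called by limma, beside 3.23% of all genes tested called higher and 3.81% called lower. No library was taken between the switch and D8, so a passing change within minutes or hours of it could not be seen. On the adjusted p alone, 2 passed, Fosl2 (-0.37, adjusted p = 0.0499) and Junb (-0.42, adjusted p = 0.044), where 21.0% of all genes did. At an unadjusted p under 0.05 it was 7 of the 10, beside 33.3% of all genes, and the study's own rule (a fold threshold with an unadjusted p) called 0. Their median log2 fold change was 0.31, against 0.026 over all genes tested.

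Between D8 and D10, 3 of the 10 rose (Fosl1, Atf3 and Egr1) and 0 fell, beside 4.08% of all genes called higher and 5.58% called lower. The same 3 made up the genes passing on the adjusted p alone, where the share of all genes was 28.8%. The median was 0.25, against 0.000 over all genes. For D10 against D7, Fosl1, Atf3 and Egr1 rose and none of the 10 fell (8.50% of all genes higher, 10.4% lower). By adjusted p alone 6 passed, adding Fos, Egr2 and, downward, Fosl2, beside 41.2% of all genes. The median over the 10 genes was 0.64, against 0.053 over all genes.

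From D10 to D28, 5 fell (Fosl1, Junb, Atf3, Egr1 and Egr2) and 0 rose, beside 13.7% of all genes called lower and 13.8% called higher. On the adjusted p alone 8 passed, of which Fosl2 was the one in the upward direction, and 52.4% of all genes did. The median was -1.11, against -0.103 over all genes. Another scaling, by the median of ratios, moved the fold changes of this comparison upward by a median of 0.130, and the 5 calls held under it. Comparing the ends of the series, D28 against D7, only Junb was called, lower (8.66% of all genes called lower, 8.63% higher), and it alone passed on the adjusted p, beside 37.3% of all genes. The median was -0.19, against -0.032. A p above the threshold does not show that the other 9 genes were back at their D7 level: the 95% confidence interval of the D28 against D7 difference ran from -1.0 to 0.40 for Atf3 and from -0.55 to 0.67 for Fosl1.

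**Figure D2:**
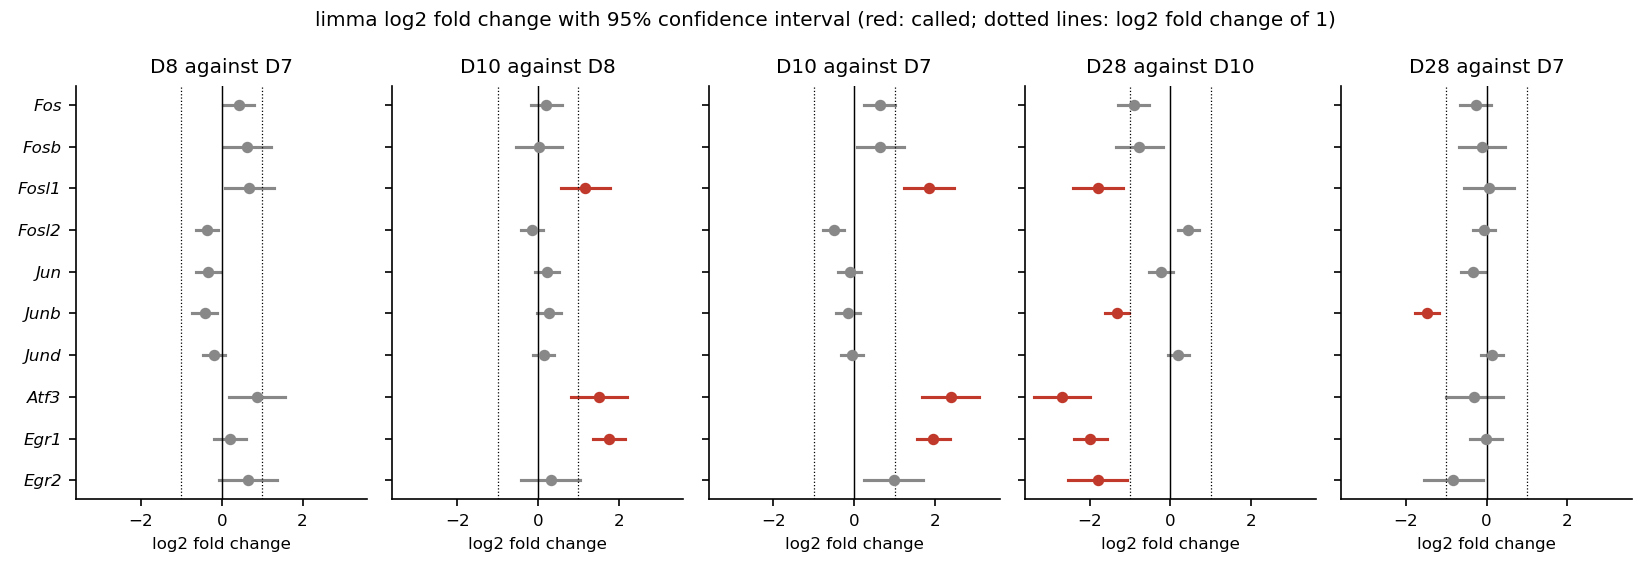
The limma log2 fold change (horizontal axis, first time point minus second) with its 95% confidence interval for each gene and comparison, red where called. For D10 against D7 Atf3, Egr1 and Fosl1 are red and positive, for D28 against D10 5 genes are red and negative, and for D28 against D7 only Junb is red.

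The libraries of one time point did not spread in the same way for each gene. The first D10 replicate was the highest of its group for 7 of the 10 genes and the lowest for 2, Fos and Fosb. The third D28 replicate was the highest for 8 and the lowest for none, and the second D28 replicate the lowest for 8. Among D7 libraries the third was the highest for 8 and the second the lowest for 7. The summed level of the integrated stress genes was also highest in the first D10 replicate (16.25, with 15.63 and 15.75 in the others) and in the third D28 replicate (14.89, with 14.39 and 14.54). The sum of the heat shock genes was highest in the same libraries (15.73 and 14.57). At D7 the integrated stress sum was highest in replicate 3 (14.97). The heat shock sum was highest there in replicate 2 (14.59), the lowest D7 library for 7 of the 10 genes. For other immediate early genes the sum was lowest in D10 replicate 1 (16.37, with 16.41 and 16.52). At D28 it was highest in replicate 1 (15.93, with 15.73 in replicate 3), and at D7 in replicate 3 (16.52). The part of these differences between libraries in the results was not tested beyond leaving out each library.

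Per kilobase of exon, the order of levels within a library could be set between genes. On the log2 per kilobase scale Junb led at D7 (10.47 to 11.01) and D8 (10.21 to 10.53), clear of the next gene. At D10 Atf3 (10.21 to 11.55) overlapped Junb (10.50 to 10.69) and, narrowly, Egr1 (9.45 to 10.25). Egr1 lay below Junb and overlapped Jund (9.03 to 9.49). At D28 Jund (9.30 to 9.50) and Junb (9.05 to 9.48) overlapped at the top. Fosb and Egr2 held the lowest places at every time point and overlapped there, with values from 2.30 to 5.13. Egr1 was ranked 6 of the 10 at D7, below Atf3, 3 at D10 and 6 at D28, where it overlapped Atf3.

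Within the Fos family, Fosl2 made up the largest share at every time point and had its lowest share at D10, where Fosl1 had its highest. As a share of the level per kilobase summed over the 4 Fos genes, Fosl2 made up 72.4% ± 2.8 (SD, n = 3) at D7, then 59.0% ± 4.9 (D8), 47.6% ± 1.2 (D10) and 73.9% ± 3.6 (D28). Over the same 4 time points Fosl1 made up 5.95% ± 0.78, 10.0% ± 1.0, 20.5% ± 5.3 and 6.70% ± 1.5. The D10 libraries overlapped no other group for either gene. Fos made up 19.5% ± 2.8, 27.3% ± 3.6, 28.4% ± 5.1 and 17.2% ± 2.5, and Fosb between 2.18% and 3.65% on average. Within a library, Fosl1 stood below Fos by a mean log2 difference of -1.71 at D7 and -0.48 at D10, where it passed Fos in the first replicate (0.20). The limit on strand given above for Fosl1 applies to its level per kilobase and its share as well.

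Within the Jun family the change came at D28. Junb made up 64.3% ± 1.6 (SD, n = 3) of the level per kilobase at D7, then 61.4% ± 4.0 (D8), 63.1% ± 3.4 (D10) and 39.6% ± 2.6 (D28). Jund made up 22.9% ± 1.5, 25.5% ± 1.5, 24.0% ± 2.4 and 43.1% ± 1.7, and Jun 12.8% ± 0.63, 13.1% ± 2.6, 12.9% ± 1.1 and 17.3% ± 1.2. The D28 libraries stood apart from the earlier 9 for Junb and Jund. The limit on strand given above for Jund applies to its share too. The shares of both families were not tested, and they depend on the gene lengths used: RefSeq starts Jund at 70697739, upstream of the GENCODE start at 70698949, so its length of 1668 bases may be too short. With the longest annotated transcript as length, Junb stood above Jund at D28 (45.4% and 38.9%). Egr1 made up 91.9% to 96.9% of the 2 Egr genes on average at each time point.

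**Figure D3:**
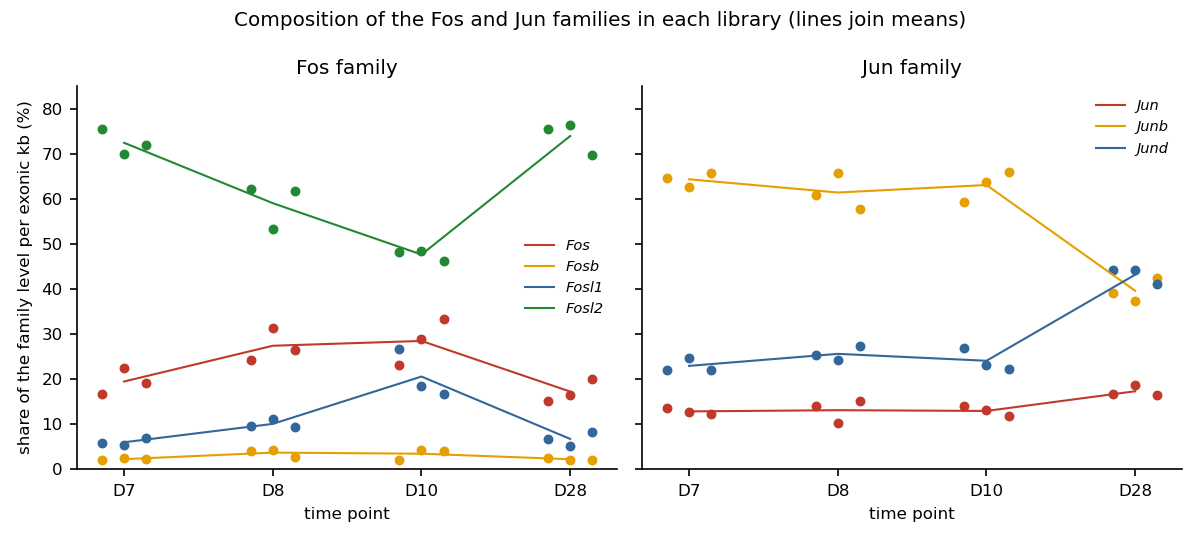
The share of each gene in the summed level per exonic kilobase of its family (vertical axis, percent) in each library (points), with lines joining the means of the time points. Fosl2 has its lowest share and Fosl1 its highest at D10, while Junb and Jund meet at D28, at mean shares of 39.6% and 43.1%, an order that turns with the longest transcript as length (45.4% and 38.9%).

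Likeness of pattern was measured as the root mean square difference of centred log2 values over the 12 libraries, as a description. Among the 10 genes the closest pairs were Fosl2 and Jund (0.20), Jun and Jund (0.22), Fosl2 and Jun (0.25), Fos and Fosb (0.27) and Fosl1 and Egr1 (0.28). Flat genes score low by this measure. Among 12171 other genes, Gab2 was among the closest 3 for Fosl1 (0.22), Egr1 (0.22) and Atf3 (0.35). The closest was Zyx for Atf3 (0.26), Slc25a30 for Egr1 (0.22), Fbxl16 for Junb (0.19) and Rab39b for Egr2 (0.25).

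Relatives and partners of these genes were measured beside them. Egr3, a further Egr factor, rose by 2.34 from D7 to D8 (SE 0.34, adjusted p = 0.00021), a step at which neither Egr1 nor Egr2 was called. It was higher at D10 than at D7 by 3.16 (adjusted p = 3.2e-06), fell by 1.22 from D10 to D28 (adjusted p = 0.0075) and was above D7 at D28 by 1.94 (adjusted p = 0.00037), where the value of Egr1 was -0.01; this difference between the genes was not tested. The Nab corepressors of Egr proteins, Nab1 and Nab2, were 0.59 and 0.78 for D10 against D7 and were not called. Counting Egr4 as well, 1 of these 4 genes rose and 0 fell from D7 to D10, beside 8.50% and 10.4% of all genes. Of 5 tested partners of the AP-1 dimer, 2 fell from D7 to D10 (10.4% of all genes called lower), Batf3 by 1.74 (adjusted p = 0.00077) and Jdp2, a repressor of AP-1, by 1.07 (adjusted p = 6.1e-05), and Batf3 was lower at D28 than at D7 by a log2 difference of -4.53 (adjusted p = 7.5e-08).

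Factors and kinases that act upstream of these genes were measured as well. None of 8 tested SRF, ternary complex, myocardin-related and CREB factors was called by limma in any of the 5 comparisons. An unadjusted p under 0.05 was found for 4 of the 8 in D8 against D7 (33.3% of all genes), 3 in D10 against D8 (39.3%), 4 in D10 against D7 (48.5%), 8 in D28 against D10 (57.3%) and 2 in D28 against D7 (45.3%). Of these, Srf differed by 0.94 for D10 against D7 (SE 0.14, adjusted p = 4.8e-05), and all 8 had an adjusted p under 0.05 for D28 against D10, as did 52.4% of all genes, with a median log2 fold change of -0.53. Of 15 kinases of the ERK, JNK and p38 pathways, 2 rose from D7 to D10, among them Mapk12 (1.08, adjusted p = 0.0050), beside 8.50% of all genes called higher. Between D10 and D28, 3 of the 15 rose and 3 fell, where 13.8% of all genes were called higher and 13.7% lower. Mapk3 (ERK1) was higher by 1.07 (adjusted p = 8.5e-07), Map2k6 higher by 1.10 (adjusted p = 0.0011), Mapk12 lower by -1.40 (adjusted p = 0.00049) and Mapk8 (JNK1) lower by -1.09 (adjusted p = 0.00012). RNA levels do not report kinase activity.

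Other immediate early genes were called in both directions. Of 26 tested, 6 rose and 4 fell from D7 to D10, with a median of 0.30, where 8.50% of all genes were called higher and 10.4% lower. From D10 to D28, 3 rose and 7 fell, with a median of -0.72, beside 13.8% and 13.7% of all genes. Without the first D10 replicate these counts were 5 and 4, and 4 and 5. Ptgs2, the inducible prostaglandin synthase, rose by 5.03 from D7 to D10 (SE 0.32, adjusted p = 1.5e-08), and Arc rose by 3.70 (SE 0.16, adjusted p = 5.1e-10). Klf2, a factor of quiescent and flow-exposed cells, fell by 3.12 (SE 0.23, adjusted p = 6.2e-08), and Rhob, a small GTPase, fell by 2.34 (SE 0.12, adjusted p = 2.4e-09). All 4 moved the opposite way from D10 to D28: Ptgs2 by -5.62, Arc by -4.23, Klf2 by 3.22 and Rhob by 2.32. At D8 against D7, 2 of the 26 rose, Ptgs2 (2.51) and Arc (1.96), and 5 fell, among them Gadd45b (-1.46) and Btg2 (-1.29), beside 3.23% of all genes higher and 3.81% lower. The median of this list was -0.31, against 0.026 over all genes.

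Of 15 tested genes known as AP-1 targets, 6 rose and 2 fell from D7 to D10, with a median of 0.82, beside 8.50% of all genes higher and 10.4% lower. From D10 to D28, 2 rose and 7 fell, with a median of -0.97, beside 13.8% higher and 13.7% lower, and without the first D10 replicate 1 rose and 7 fell. Hmga1, a chromatin protein, rose by 4.33 from D7 to D10 (SE 0.20, adjusted p = 7.4e-10), and Hmox1, heme oxygenase, by 3.78 (SE 0.24, adjusted p = 1.5e-08). Mmp13, the collagenase of hypertrophic cartilage, fell by 2.51 (SE 0.28, adjusted p = 3.7e-06) and rose by 2.45 from D10 to D28 (adjusted p = 2.6e-06). At D8 against D7, 5 of the AP-1 targets had risen, among them Hmga1 (2.93, adjusted p = 2.4e-07) and Hmox1 (2.69, adjusted p = 3.5e-06), and 2 had fallen, among them Mmp13 (-2.64, adjusted p = 1.5e-05), beside 3.23% and 3.81% of all genes. From D8 to D10 Hmga1 and Hmox1 rose again, while the Mmp13 difference was 0.13 (adjusted p = 0.77). Of 11 tested Egr targets, 2 rose and 4 fell from D7 to D10, beside the same 8.50% and 10.4% of all genes. Gdf15, a stress-induced cytokine, rose by 4.29 (SE 0.33, adjusted p = 8.9e-08) and Pdgfa by 1.38 (SE 0.13, adjusted p = 6.2e-07), while Pmp22, a myelin protein under Egr2 in nerve, fell by 2.04 (SE 0.14, adjusted p = 3.6e-08) and tissue factor F3 fell by 1.81 (SE 0.16, adjusted p = 3.0e-07). From D10 to D28, 2 rose and 4 fell, beside 13.8% and 13.7%.

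Stress genes are given beside Atf3, which is known from stress responses. Their counts stand beside 8.50% of all genes called higher and 10.4% called lower for D10 against D7, and 13.8% higher and 13.7% lower for D28 against D10. Of 7 integrated stress response genes, 3 rose from D7 to D10, Ppp1r15a by 2.02 (SE 0.23, adjusted p = 4.4e-06), Ddit3 (Chop) by 1.69 (SE 0.20, adjusted p = 8.8e-06) and Atf4, an activator of Atf3, by 1.18 (SE 0.18, adjusted p = 7.5e-05), and 1 fell, Chac1 (-1.18, SE 0.17, adjusted p = 3.9e-05). From D10 to D28, 5 fell and 0 rose, with Ppp1r15a at -1.97 and Ddit3 at -1.70. Without the first D10 replicate, 2 rose and 1 fell from D7 to D10, and 4 fell from D10 to D28. Of 8 heat shock genes, which can mark handling of a sample, all rose from D7 to D10, with a median of 1.37, among them Hspa1b (2.93, SE 0.30, adjusted p = 1.9e-06), and 5 fell from D10 to D28. Without that replicate the heat shock counts were 7 and 3. The summed log2 level of the heat shock genes was 15.48 to 15.73 in the D10 libraries, 14.24 to 14.57 in those of D28 and 13.95 to 14.59 before D10, so the D10 libraries stood clear of the rest, as did those of Atf3, Egr1 and Fosl1. Hspa1a and Hspa1b were still above D7 at D28, by 2.24 and 2.40. The part of handling or stress in the D10 levels of the 10 genes was not tested.

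**Figure D4:**
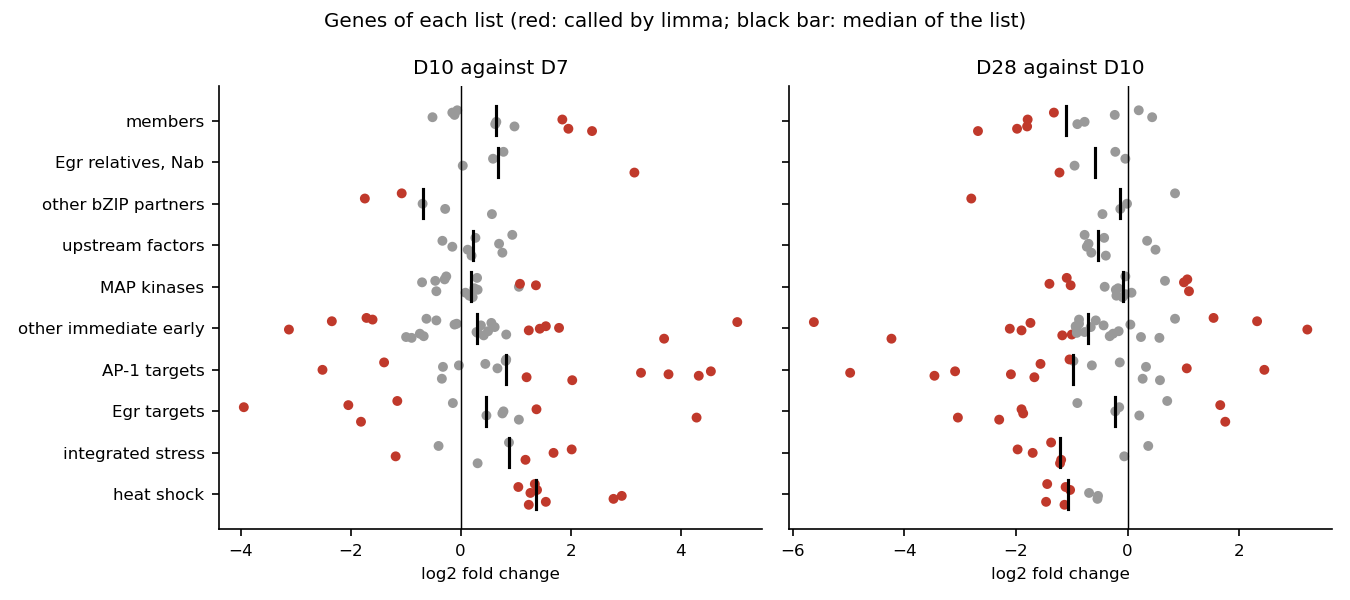
The limma log2 fold change (horizontal axis) of each tested gene of each list (rows) for D10 against D7 and D28 against D10, red where called, with the median of the list as a black bar. All 8 heat shock genes are red and above 0 in the first panel, while AP-1 and Egr targets have red points on both sides of 0.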

How the data were processed

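Poly(A) RNA of 12 pellet samples was sequenced, with 3 libraries at each of 4 time points. The labels describe 2 Illumina kits, both stranded, and the study's methods name the ligation-based Stranded mRNA Prep. The submitters' processing notes name Trimmomatic 0.36, HISAT2, Cufflinks, HTSeq and GRCm38, while the study's methods name a human genome for the alignment although the table lists mouse symbols. The authors equalized the HTSeq counts between samples and deposited log2 values of these counts, with a pseudocount of 1 added first, without pooling replicates. Sorted values are nearly the same in every library, as after quantile normalization, with a shared maximum of 20.92, so totals of reads are not kept. Relative depth was read from the lowest distinct values over 562 genes. Such levels describe counting error only.

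Genes reaching a log2 value of 1 in 3 or more libraries entered the test with limma 3.58.1 in R 4.3.3, with a variance trend on mean expression, 1 coefficient per time point and no block (8 residual and 7.23 prior degrees of freedom). The p-values are two-sided with Benjamini-Hochberg adjustment over the 17674 genes left, and 10570 failed the filter. No count model was fitted to these equalized log values. Lengths and overlaps came from GENCODE M21, promoter windows from RefSeq, and figures from Python 3.11.15 (matplotlib 3.10.9, numpy 2.4.6, pandas 2.3.3). All 10 genes are named. Of each other list, counts are given for some of the comparisons, and for cell type markers for D10 against D7 and D28 against D10. Up to 4 called genes per list are named, those with the largest fold changes among genes whose mean log2 value reached 5. Beside these, Nab1, Nab2, Egr4, Srf, Col2a1, Myf5, Tie1 and the genes opposite the members are named, chosen after their values were seen. Likeness was measured among genes with the same minimum mean. The genes and lists were chosen with earlier results of these data known. On simulated data for D10 against D7 with 17674 genes, 90 of 100 genes changed by 1.5 and 96 of 100 changed by 2.5 on the log2 scale were found, with 4 false calls. The changed genes all had a D7 mean log2 value above 5, and the noise was drawn from a normal distribution. Far fewer genes were changed than were called in the data, so these rates need not hold for the data. The alternatives were another scaling, other filters, pseudocounts and fold thresholds, low values raised to the 3-read level, a fit of 2 time points only, a fit without the variance trend, the study's own rule, a replicate block and leaving out each library.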

Additional observations from a re-analysis of the deposited data

How the results depend on the processing

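Of the 10 genes, the same 3 were called for D10 against D7 and the same 5 for D28 against D10 under median-of-ratios scaling, both other pseudocounts and both other filters, with low values raised, without the variance trend, with 2 time points only and under the study's own rule. Calls changed with the fold threshold. Without one, the adjusted p alone called 3714, 5096, 7288, 9259 and 6592 genes for D8 against D7, D10 against D8, D10 against D7, D28 against D10 and D28 against D7, and 2, 3, 6, 8 and 1 of the 10. At an absolute log2 fold change of 2 it was 388, 532, 1342, 2095 and 1356 genes, and 0, 0, 1, 1 and 0 of the 10. These counts follow from the threshold itself.

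Leaving out each library gave 0 calls among the 10 for D8 against D7, 2 to 3 for D10 against D8, 3 to 4 for D10 against D7, 5 to 6 for D28 against D10 and 1 to 2 for D28 against D7, where the extra call was Egr2 without the third D28 replicate. The range for D10 against D7 was 1.97 to 2.64 for Atf3, 1.73 to 2.13 for Egr1 and 1.59 to 2.01 for Fosl1, and for D28 against D7 it was -1.62 to -1.35 for Junb. Values near 0 changed sign. Fosb for D10 against D8 ran from -0.17 to 0.30 and was -0.17 without the third D8 replicate and -0.13 and -0.09 without the second D10 replicate and without the third. Jund for D10 against D7 ran from -0.20 to 0.03 and was 0.02 without the third D7 and 0.03 without the second D10 replicate. For D28 against D7, Egr1 ran from -0.18 to 0.11, with 0.08 without the third D7 replicate, 0.02 and 0.11 without the first and second D28 replicates and 0.04 under median-of-ratios scaling. Fosl1 ran from -0.20 to 0.34 there, with -0.11 without the second D7 and -0.20 without the third D28 replicate, Atf3 from -0.73 to 0.00 (without the first D28 replicate), and Fosb from -0.25 to 0.08 and Fosl2 from -0.19 to 0.03 (both without the second D28 replicate). The cause of these sign changes was not tested.

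Replicate numbers did not pair the libraries: deviations of the 18 same-numbered pairs correlated at -0.06 to 0.07 and 3 of 12 libraries correlated best with their own number. With the replicate number as a block, 0, 3, 3, 5 and 1 of the 10 were called in the 5 comparisons. With the longest annotated transcript as length, chosen after seeing the data, Fosl2 made up 77.1%, 64.8%, 54.1% and 78.4% of the Fos family at D7, D8, D10 and D28, and Junb 69.6%, 66.9%, 68.4% and 45.4% of the Jun family, so Junb then stood above Jund (38.9%) at D28. Depth limits low values only, and all 10 genes lay above the level of 3 reads in every library.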
